A study of Mus musculus with 6 samples.

Results

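The Sox, T-box, Pax and Gata genes encode transcription factors that direct the formation of organs and cell types in the embryo. The 49 genes described here are a fixed list of family members, 19 Sox, 15 T-box (the Tbx genes with Eomes and Tbr1), 9 Pax and 6 Gata genes, out of 21883 protein-coding genes on chromosomes 1 to 19, X and Y. All 49 symbols were found in the gene table. Nucleosomes were mapped by MNase-seq in sperm collected from mouse epididymis and vas deferens, in which micrococcal nuclease removes exposed DNA and leaves the DNA held in nucleosomes. There were 4 libraries from wild-type C57BL6 mice (WT 1 to 4) and 2 from mice with the K49A substitution in protamine 1 (K49A 1 and 2). Age was not given in the sources used here. Sperm of both genotypes were pretreated with DNase I, opened with 50 mM DTT and digested in rounds of 5 U and 15 U of MNase, after which DNA of single-nucleosome size was gel-purified. The measurements are the authors' lists of enriched regions (peaks). A gene was counted as having a peak at an end when a peak touched the window of 1 kb either side of its first or last annotated base. It was counted as having a peak in its body when a peak overlapped the gene and did not lie wholly inside one of those windows. A gene could have both, and a single peak that overlapped the gene and crossed the edge of a window counted for both.

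As background, most histones of the mammalian spermatid are exchanged for protamines, and a small share of nucleosomes stays in mature sperm. Promoters rich in CG dinucleotides and genes of embryonic development are known for keeping nucleosomes there. Sox proteins bind and bend DNA through a high-mobility-group box, T-box proteins bind through the T domain, Pax proteins through the paired domain and Gata proteins through zinc fingers that read the letters GATA.

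List lengths for WT 1 to 4 were 11313, 20458, 22237 and 27903 peaks. Those of K49A 1 and 2 were 700 and 1017, and the sequencing depth behind the lists is unknown. The lists end at a −log10 q of 1.00 to 1.04, so a gene without a peak is a gene without a region past that limit. Counts move with the length of the list, and the percent of all protein-coding genes called in the same library is the background against which they are to be read. The assay reads DNA and cannot test the cell type by expression. Of genes that mark other cells or sperm, a peak at an end was found in each WT library for 3 of 10 leukocyte genes, for 2 to 4 of 10 epididymal epithelium genes and for 2 to 4 of 12 sperm and spermatid genes, and for none of them in K49A. Of all protein-coding genes 28.8 to 49.8% had one in the WT libraries and 0.334 to 0.430% in K49A, so these counts are not results about the marker lists.

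The promoters of 8 members show the range of sequence on which these peaks lay or did not lie. Each is 300 bases from RefSeq (build GRCm38.p6, the assembly of mm10), from 250 bases before to 50 bases after a listed start, read 5′ to 3′ on the gene's strand. Capitals mark every CG dinucleotide, which reads the same on both strands. Sox12 (chr2:152397997-152398296, minus strand), Sox30 (chr11:45980060-45980359, plus strand) and Gata5 (chr2:180334630-180334929, minus strand) are shown because peaks overlapped these bases in every WT library.
Sox12: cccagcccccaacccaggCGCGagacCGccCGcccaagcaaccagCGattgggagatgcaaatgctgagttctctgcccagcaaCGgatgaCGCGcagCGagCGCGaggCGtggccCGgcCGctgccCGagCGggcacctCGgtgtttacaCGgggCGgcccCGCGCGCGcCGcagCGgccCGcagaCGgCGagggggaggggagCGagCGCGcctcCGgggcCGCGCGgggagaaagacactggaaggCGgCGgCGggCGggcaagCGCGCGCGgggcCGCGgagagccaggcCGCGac
Sox30: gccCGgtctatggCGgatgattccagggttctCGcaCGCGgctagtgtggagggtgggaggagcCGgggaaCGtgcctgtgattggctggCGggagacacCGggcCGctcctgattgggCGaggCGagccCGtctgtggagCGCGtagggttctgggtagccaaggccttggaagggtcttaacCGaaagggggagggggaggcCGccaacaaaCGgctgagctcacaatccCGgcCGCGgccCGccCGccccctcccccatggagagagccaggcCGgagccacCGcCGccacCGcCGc
Gata5: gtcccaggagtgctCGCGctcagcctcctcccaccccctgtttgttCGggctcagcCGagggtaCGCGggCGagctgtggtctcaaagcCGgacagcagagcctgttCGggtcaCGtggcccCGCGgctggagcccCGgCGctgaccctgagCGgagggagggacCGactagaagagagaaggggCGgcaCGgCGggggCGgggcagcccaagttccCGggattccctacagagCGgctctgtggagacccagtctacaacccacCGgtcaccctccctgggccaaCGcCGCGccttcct
Tbr1 (chr2:61804203-61804502, plus strand) and Pax7 (chr4:139832919-139833218, minus strand) are shown because a peak overlapped them in 3 and 2 WT libraries, although Tbr1 has few CG.
Tbr1: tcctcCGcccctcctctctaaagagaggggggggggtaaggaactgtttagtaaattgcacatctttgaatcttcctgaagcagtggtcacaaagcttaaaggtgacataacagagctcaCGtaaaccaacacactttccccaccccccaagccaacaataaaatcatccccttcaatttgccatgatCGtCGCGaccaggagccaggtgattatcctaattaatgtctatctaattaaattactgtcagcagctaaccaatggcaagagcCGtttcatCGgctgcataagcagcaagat
Pax7: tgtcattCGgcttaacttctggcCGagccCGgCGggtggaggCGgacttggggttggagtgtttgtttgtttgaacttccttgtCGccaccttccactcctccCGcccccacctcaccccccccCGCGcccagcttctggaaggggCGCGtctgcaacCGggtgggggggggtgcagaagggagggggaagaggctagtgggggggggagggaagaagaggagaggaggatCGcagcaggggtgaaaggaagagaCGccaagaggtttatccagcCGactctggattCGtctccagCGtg
Sox14 (chr9:99876121-99876420, minus strand), Tbx22 (chrX:107667714-107668013, plus strand) and Gata1 (chrX:7967861-7968160, minus strand) are shown because these genes had no peak at an end or in the body in any of the 6 libraries.
Sox14: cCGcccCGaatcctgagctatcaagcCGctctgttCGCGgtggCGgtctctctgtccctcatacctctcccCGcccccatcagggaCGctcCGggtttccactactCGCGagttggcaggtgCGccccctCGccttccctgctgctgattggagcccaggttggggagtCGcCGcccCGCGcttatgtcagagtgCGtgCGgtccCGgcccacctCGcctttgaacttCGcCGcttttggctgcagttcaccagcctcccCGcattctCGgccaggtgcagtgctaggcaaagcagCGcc
Tbx22: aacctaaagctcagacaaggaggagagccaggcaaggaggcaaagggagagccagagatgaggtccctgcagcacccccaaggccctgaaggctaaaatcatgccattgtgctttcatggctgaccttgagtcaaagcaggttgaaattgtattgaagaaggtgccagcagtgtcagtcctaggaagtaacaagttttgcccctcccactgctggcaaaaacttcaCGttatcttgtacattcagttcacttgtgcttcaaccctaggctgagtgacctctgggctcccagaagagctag
Gata1: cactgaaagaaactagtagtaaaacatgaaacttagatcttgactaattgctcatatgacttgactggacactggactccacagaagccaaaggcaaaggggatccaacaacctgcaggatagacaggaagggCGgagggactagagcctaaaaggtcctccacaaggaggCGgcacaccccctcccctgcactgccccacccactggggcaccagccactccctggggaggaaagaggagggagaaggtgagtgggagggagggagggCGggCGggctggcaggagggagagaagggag
The first 3 hold 47, 28 and 26 CG, Tbr1 and Pax7 hold 7 and 17, and Sox14, Tbx22 and Gata1 hold 26, 1 and 4. Sox14 thus had as many CG as Gata5 and no peak.

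In wild-type sperm the members had peaks at a gene end in 18, 24, 32 and 32 of 49 cases in WT 1 to 4, where 28.8, 43.0, 46.3 and 49.8% of all protein-coding genes were called. The mean share was 54.1 ± 13.9% of members (SD, n = 4) against 42.0 ± 9.23% of all genes. In K49A sperm 0 and 1 members were called in K49A 1 and 2, where 0.430 and 0.334% of all genes were called, which is near the background and is not a result about the members. With a window of 500 bp the WT shares lay closer, at 42.4% of members and 38.0 ± 8.79% of all genes. In gene bodies the members were further from the background, by a count that includes end peaks reaching past a window. At Gata5, 1 peak per WT library gave both calls. The median width of end peaks was larger for members than for all genes in each WT library. Its part in the body counts was not tested. A body peak was found for 17, 31, 32 and 32 members in WT 1 to 4, where 14.7, 25.7, 27.3 and 30.5% of all genes were called, a mean of 57.1 ± 15.0% against 24.6 ± 6.87% (SD, n = 4). The body counts of K49A 1 and 2 were 1 and 0 members, against 0.896 and 1.34% of all genes, again near the background. WT 1 was the lowest WT library in each of these counts and had the shortest WT list.

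**Figure D1:**
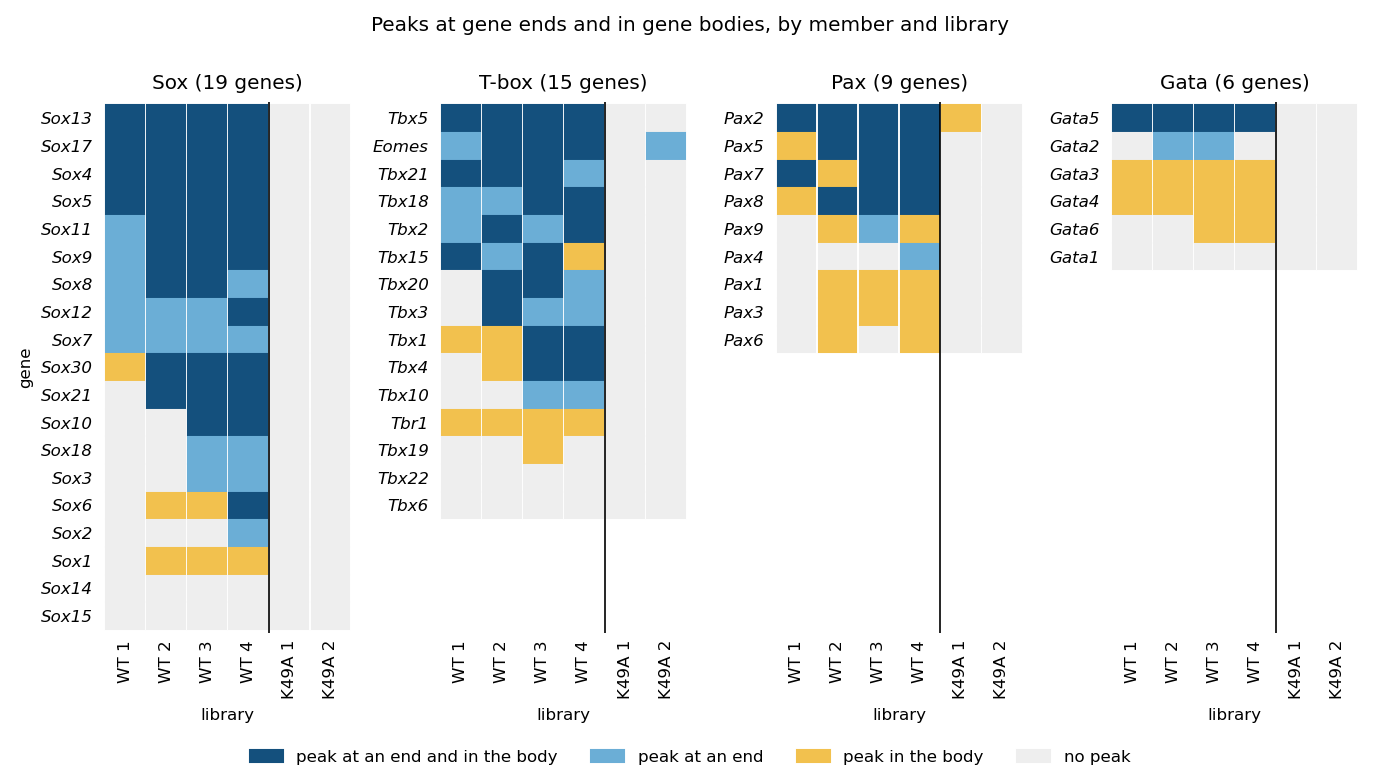
Calls for the 49 genes (rows, by family) in the 6 libraries (columns, the line divides WT from K49A); dark blue is a peak at an end and in the body, light blue at an end, yellow in the body, grey none. The 5 genes with grey cells throughout are Sox14, Sox15, Tbx6, Tbx22 and Gata1, and the K49A columns hold 2 calls, Pax2 and Eomes.

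End peaks in every WT library were found for 16 of the 49 genes, against 22.2% of all genes. End peaks in every WT library and in neither K49A library were found for 15 of the 49 (30.6%), against 21.8% of all genes. Among genes called in every WT library, 15 of 16 members and 4764 of 4849 of all genes had none in K49A. Another 14 members had no end peak in any WT library, against 40.2% of all genes, and the other 19 were called in 1 to 3 WT libraries. Body peaks in all 4 WT libraries were found for 15 members, against 10.4% of all genes. Counting ends and bodies together, 25 members were called in each of the 4 WT libraries (29.6% of all genes), and 5 members had none in any of the 6 libraries (29.8%). Those 5 were Sox14, Sox15, Tbx6, Tbx22 and Gata1. In K49A, 1 member had an end peak in any library (0.626% of all genes) and 1 had a body peak (1.84%).

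For each gene, the bases covered by peaks in the end windows were compared between genotypes by exact permutation, two-sided, using all 15 ways to divide the libraries 4 to 2. No p below 0.133 can arise in this design. With Benjamini-Hochberg adjustment over 21883 genes the smallest adjusted p of the exact permutation test was 0.605, and 0 genes passed 0.05, adjusted or not. The 16 members called in every WT library reached the smallest p, each with more covered bases in 4 of 4 WT libraries than in either K49A library, as did 22.0% of all genes. In the opposite direction there were 0 members and 0.0183% of all genes. Among these 16, covered length at the ends ranged from a mean of 418 ± 153 bp at Sox4 to 1147 ± 389 bp at Sox5 (SD, n = 4). In K49A it was 0 except at Eomes (0 and 86 bp).

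At gene ends the Sox family had the highest share, with 9, 11, 14 and 16 of 19 genes in WT 1 to 4 (65.8 ± 16.4%, SD, n = 4). T-box genes followed with 6, 8, 11 and 10 of 15 (58.3 ± 14.8%). Pax genes had 2, 3, 5 and 5 of 9 (41.7 ± 16.7%) and Gata genes 1, 2, 2 and 1 of 6 (25.0 ± 9.62%). Against 42.0 ± 9.23% of all genes, the Pax share was at the background and the Gata share below it. The share was higher in Sox than in any other family in each of the 4 WT libraries. Between Sox and T-box genes the gap was smallest in WT 3, with 73.7 against 73.3%, and largest in WT 4, with 84.2 against 66.7%. Their mean shares differed by less than the spread between libraries. In gene bodies the order was not the same. Pax genes had 4, 8, 6 and 8 of 9 (72.2 ± 21.3%), Gata genes 3, 3, 4 and 4 of 6 (58.3 ± 9.62%), T-box genes 5, 9, 10 and 8 of 15 (53.3 ± 14.4%) and Sox genes 5, 11, 12 and 12 of 19 (52.6 ± 17.7%), and these ranges overlapped. Of all genes 24.6 ± 6.87% had a body peak, a lower mean than in any of the 4 families. The families are small and their members are not replicates, so the differences between them were not tested.

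**Figure D2:**
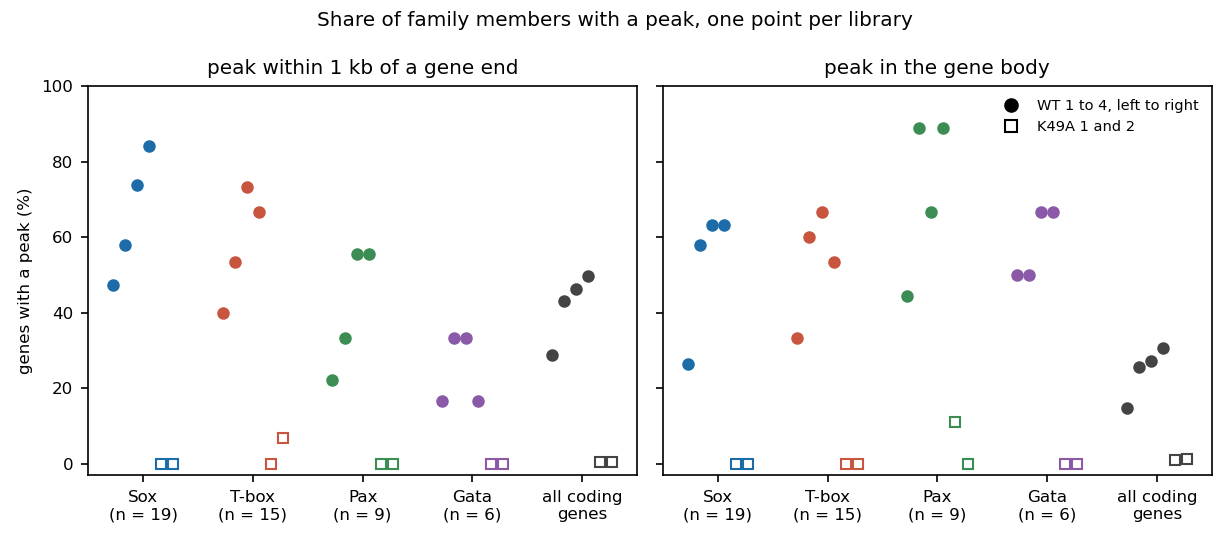
Percent of genes with a peak within 1 kb of a gene end (left) and in the gene body (right), one point per library, for each family and for all 21883 coding genes; filled circles are WT, open squares K49A. At ends the Sox points span 47.4 to 84.2% and the Gata points 16.7 to 33.3%, while in bodies the WT points of every family lie at or above 26.3%.

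The order at gene ends was not the same when listed starts were used, a measure that also has fewer genes. The promoter table lists a start for 35 of the 49 members (13 Sox, 11 T-box, 7 Pax and 4 Gata), and several of these lie inside the annotated gene. A peak within 1 kb of any listed start was found for 59.6 ± 9.68% of Sox, 45.5 ± 10.5% of T-box, 60.7 ± 21.4% of Pax and 56.2 ± 23.9% of Gata genes (SD over 4 WT libraries), against 43.0 ± 9.04% of 17491 genes with a listed start. Gata4 and Gata6, which had no end peak, have no listed start, and the Gata share at the annotated outer start was already 37.5% without them. By this measure, which was chosen after the data were seen, Sox, Pax and Gata shares differed by less than the spread between libraries. Gata3 is an example. It had no peak at either outer end, and its listed start lies within the gene, with a peak within 1 kb in 3 WT libraries.

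Gene length differed between the families, with a median of 4794 bp in Sox, 17325 bp in T-box, 24140 bp in Gata and 55049 bp in Pax genes, against 17170 bp for all genes. A body peak was more frequent among members than among all genes in each length class. Under 10 kb, 40.5 ± 17.6% of 21 members and 9.48 ± 2.96% of all genes had one (11.4 ± 3.53% of all genes without the Olfr and Vmn receptor genes). From 10 to 50 kb the values were 57.4 ± 14.7% of 17 members and 23.3 ± 7.64%, and from 50 kb up 88.6 ± 11.4% of 11 members and 51.2 ± 11.9% (SD, n = 4). At gene ends the gap to all genes was larger than the spread between libraries only in the class under 10 kb, with 60.7 ± 18.4% against 27.9 ± 7.46% (33.3 ± 8.88% without the receptor genes). In the next class they had 39.7 ± 12.1% against 45.2 ± 10.9%, and in the longest 63.6 ± 12.9% against 58.8 ± 9.04%.

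The Sox genes fall into subgroups by sequence likeness. These hold 1 to 3 genes each, were set out after the values were seen and are given as a description, with no test. Of all genes 22.2% were called at an end in every WT library. All 3 SoxC genes (Sox4, Sox11 and Sox12, which act in neural and mesenchymal progenitors) had an end peak in every WT library. So did 2 of 3 in each of SoxD (Sox5 and Sox13, not Sox6), SoxE (Sox8 and Sox9, not Sox10) and SoxF (Sox7 and Sox17, not Sox18). SoxB1 genes (Sox1, Sox2 and Sox3) maintain neural progenitors and, for Sox2, pluripotent cells, while SoxB2 genes (Sox14 and Sox21) counteract them. None of these 5 was called at an end in every WT library. Sox2 had a single end peak, over its start in WT 4 with a fold of 2.80. Sox3 was called at an end in WT 3 and WT 4, Sox21 in WT 2, 3 and 4, Sox1 only in its body in WT 2, 3 and 4, and Sox14 in no library.

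Sox5, a SoxD factor of cartilage and neuron development (chromosome 6, 143828425 to 144782287), had the strongest end peak of the members. The authors' fold was 4.66, 3.22, 3.35 and 3.97 in WT 1 to 4, a mean of 3.80 ± 0.660 (SD, n = 4), with −log10 q of 8.77, 3.51, 4.95 and 7.87. These peaks ranked at the 96.9th, 89.8th, 95.9th and 98.2nd percentile of their own lists. All lay at the high end, the outermost start of this minus-strand gene, whose listed start lies within it and had no peak. The gene spans 953863 bp and held 5, 11, 11 and 14 separate peaks in WT 1 to 4 and none in K49A. Besides the end, regions at 144370584 to 144372084 (fold 3.21 ± 0.223) and 144671980 to 144673678 (3.02 ± 0.577; SD, n = 4 each) were called in all 4 WT libraries.

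Sox17, a factor of endoderm and blood vessels (chromosome 1, 4490928 to 4497426), had peaks at both ends in all 4 WT libraries. Its best peak lay at the low end, with folds of 2.63, 2.50, 2.84 and 3.17 in WT 1 to 4. Sox7, of the same subgroup (chromosome 14, 63943706 to 63950732), had peaks across its low end with folds of 3.77, 2.45, 2.79 and 2.97. In both genes the 4 WT libraries were called and neither K49A library was.

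Sox13, a SoxD factor (chromosome 1, 133382300 to 133424459), had folds of 2.95, 2.75, 2.99 and 3.11 at its start. At Sox12 (chromosome 2, 152393611 to 152398046) the folds were 3.71, 2.72, 3.03 and 2.83, and the peaks covered 226, 202, 165 and 252 of the 300 promoter bases printed above. In both genes the peak covered the listed start in every WT library. Sox30, a factor needed for the maturation of spermatids (chromosome 11, 45979069 to 46017992), had a peak over its listed start in all 4 WT libraries with folds of 3.43, 2.89, 3.03 and 4.13. That start lies within the annotated gene, and in WT 1 the peak fell outside the end window, so Sox30 counts as called at an end in 3 libraries.

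**Figure D3:**
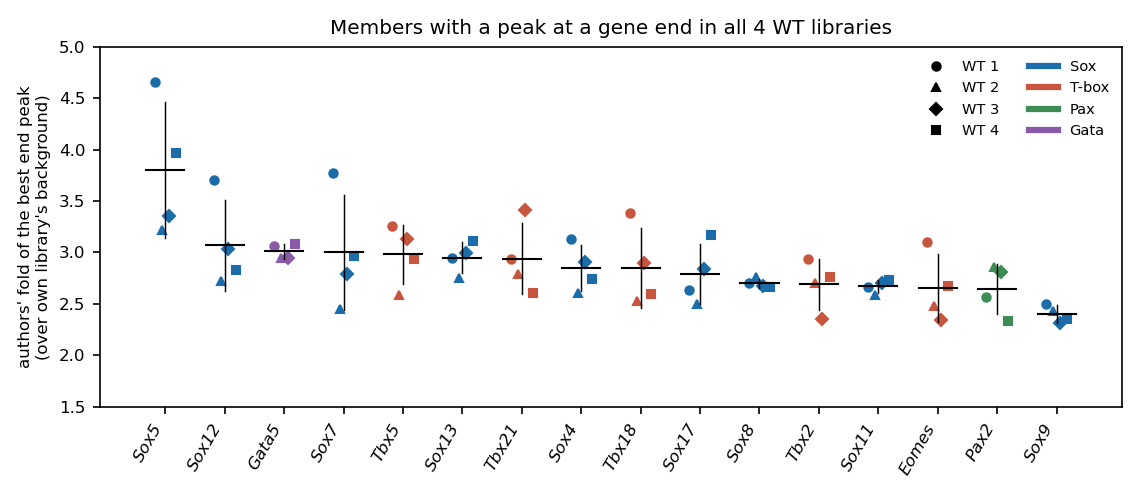
Authors' fold of the best end peak (vertical axis) for the 16 genes with an end peak in every WT library, ordered by mean; symbols are libraries, colours families, the horizontal line is the mean and the vertical line 1 SD. Sox5 has the highest mean, 3.80, and Sox9 the lowest, 2.40, and the SD lines of most neighbours overlap.

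Among the T-box genes, which set limb, heart and mesoderm identity, 5 of 15 (33.3%) had end peaks in every WT library, against 22.2% of all genes. They were Tbx2, Tbx5, Tbx18, Tbx21 and Eomes. Tbx2 and Tbx5 act in limb and heart, Tbx18 in the heart's pacemaker region and the urogenital tract, Tbx21 in type 1 helper T cells, and Eomes in mesoderm, endoderm and cortical progenitors. Tbx2 (chromosome 11, 85832615 to 85841948) had folds of 2.94, 2.70, 2.35 and 2.76 in WT 1 to 4 for its best end peaks, which lay 189 bp or more inside the low end. In WT 4 another end peak, with a fold of 2.52, lay beyond the high end. Tbx18 (chromosome 9, 87702800 to 87731260) had 3.38, 2.53, 2.90 and 2.60 at its start. WT 1 gave the highest fold at both, and it also had the highest median fold over its whole list, 3.16 against 2.85 to 2.94.

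Tbx5 (chromosome 5, 119796514 to 119885220) held 3, 3, 5 and 5 separate peaks, and the folds of its best end peak were 3.26, 2.59, 3.13 and 2.94. Its region at 119882542 to 119884630, reaching the window of the high end, was called in each with a fold of 2.77 ± 0.247 (SD, n = 4), and a region at the low end in 3. Tbx3 and Tbx5 are neighbours 112 kb apart, and Tbx2 and Tbx4 lie 44.4 kb apart. In both pairs 1 member (Tbx5 and Tbx2) was called at an end in every WT library and the other was not, with Tbx3 called in 3 and Tbx4 in 2. No member shared an end peak with the end of another protein-coding gene except Tbx10, whose peaks in WT 3 and WT 4 were also at an end of Nudt8.

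Eomes (chromosome 9, 118478186 to 118486132) was the only member with an end peak in K49A. In WT its best peak was within reach of the start, with folds of 3.10, 2.48, 2.34 and 2.67 and a mean width of 1431 bp. The K49A 2 peak lay beyond the finish, reached the end window by 86 bp and ranked at the 1.67th percentile of its list. With a minimum overlap of 100 bp it was not called. The closely related Tbr1, a factor of cortical neurons (chromosome 2, 61802863 to 61814114), had no peak at an outer end. It had a body peak in all 4 WT libraries, the nearest with a midpoint at -316, 305, 90 and 1268 bp from its listed start in WT 1 to 4 (negative is before the start).

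The other T-box genes had fewer calls. Tbx3, Tbx15 and Tbx20 were called at an end in 3 WT libraries, and Tbx1, Tbx4 and Tbx10 in 2. Tbx1, which acts in the pharyngeal arches, also had a body peak in all 4. Tbx19, a factor of pituitary corticotropes, had body peaks in WT 3 only. Tbx6, of paraxial mesoderm, and Tbx22, of the palate, had none.

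Of the 9 Pax genes, Pax2 alone (11.1%) had end peaks in every WT library, against 22.2% of all genes. Pax2, a factor of kidney, eye and ear (chromosome 19, 44746601 to 44838269), carried a wide region near its finish, at 44835218 to 44838012. Peaks there were 2082, 2399 and 2390 bp wide in WT 1, 2 and 3, and in WT 4 the region was split into peaks of 1319 and 537 bp. The folds were 2.57, 2.86 and 2.81 in WT 1, 2 and 3, and 2.47 and 2.11 for the WT 4 pair. In WT 4 a further peak near the start, with a fold of 2.33, ranked highest among its end peaks. This was the only member with a K49A peak inside a WT region. The K49A 1 peak spanned 44836650 to 44836882, with a fold of 3.57 and a −log10 q of 2.84, and ranked at the 52.7th percentile of its list, while K49A 2 had no peak in the gene. Folds are relative to each library's own background and were not compared between genotypes.

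Pax2, Pax5 and Pax8 form a subgroup, and all 3 had body peaks in all 4 WT libraries. All 3 are longer than 50 kb. Of all genes of 50 kb or more, 27.0% had body peaks in all 4 WT libraries, as did 7 of the 11 members of that length. The subgroup is small and its count was not tested. In Pax5, which commits cells to the B lineage (chromosome 4, 44524748 to 44710694), the regions at 44664161 to 44664929 (fold 2.83 ± 0.230) and 44701921 to 44704798 (2.55 ± 0.198; SD, n = 4 each) were called in all 4. Another region, just before the outer start, was called in WT 2, 3 and 4 with folds of 2.46, 2.37 and 2.73. Pax8, a thyroid and kidney factor (chromosome 2, 24420551 to 24475599), had a region of 2337 bp near its start with a fold of 2.74 ± 0.240 (SD, n = 4), which reached the end window in WT 2, 3 and 4. The Pax8 start region had end-window folds of 2.71, 2.65 and 2.52 in those 3 libraries.

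Pax7, a factor of muscle stem cells (chromosome 4, 139737059 to 139833530), held 3, 3, 5 and 4 peaks in WT 1 to 4. Its region at 139821304 to 139822694 was called in all 4 WT libraries with a fold of 2.65 ± 0.384 (SD, n = 4), and its start in WT 1, 3 and 4 with folds of 2.95, 2.56 and 2.53. The related Pax3, of neural crest and muscle, had body peaks in WT 2, 3 and 4 and none at an end. Pax1 also had body peaks in WT 2, 3 and 4, and Pax6, which acts in the eye and brain, in WT 2 and 4, with none at an end in either. Pax9 was called at an end in WT 3 only and Pax4, a factor of pancreatic islet cells, in WT 4 only.

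Outer-end calls among the Gata genes were 4 WT libraries for Gata5, 2 for Gata2 and 0 for the other 4 genes. Gata5, a factor of heart and endoderm (chromosome 2, 180325088 to 180335503), had a peak over its start in all 4 WT libraries with folds of 3.06, 2.95, 2.95 and 3.08, a mean of 3.01 ± 0.0698 (SD, n = 4). These peaks were 955 to 1836 bp wide and covered all 300 promoter bases printed above in each of the 4. Gata2, of blood progenitors, was called at its start in WT 2 and WT 3 with folds of 2.48 and 2.28. Neither gene had a K49A peak.

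Gata4, which drives heart and endoderm (chromosome 14, 63198914 to 63271712), had no peak at either outer end and 3, 3, 4 and 4 peaks in its body. The region at 63255443 to 63256454 had folds of 3.17, 3.51, 2.99 and 3.82, the highest mean of any body region called in all 4 WT libraries (3.37 ± 0.368, SD, n = 4). A second at 63240556 to 63241492 had 2.65 ± 0.241. Gata3, a factor of T cells and the inner ear (chromosome 2, 9857078 to 9887953), had a region at 9876756 to 9878225 with folds of 2.49, 1.94, 1.95 and 2.14, the lowest mean among such regions (2.13 ± 0.257, SD, n = 4). Gata6 had body peaks in WT 3 and WT 4, and Gata1, the X-linked erythroid factor, had none.

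Joining overlapping peaks over the 6 libraries gave 142 regions in the 49 genes, of which 29 were called in every WT library and 67 in a single WT library. The 29 lay in 23 genes, 20 of them at an end and 9 in a body. Of the 9 body regions, 2 were in Sox, 4 in Pax and 3 in Gata genes and none in T-box genes. A K49A peak was present in 2 of the 142 regions. Overlaps were chained, so peaks of different libraries in a region need not overlap each other. In the Gata3 region the WT 1 peak ended at 9877122 and the WT 3 peak began at 9877597. No share over all genes was taken for regions, so these counts have no background and are not results about the members.

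For genes whose strand is listed, the end called was mostly the start. Among 34 such members longer than both windows together, 49.3 ± 12.5% had a peak at the start and 6.62 ± 4.43% at the finish (SD over 4 WT libraries). For 15327 genes of the same kind the values were 44.2 ± 9.42% and 3.50 ± 1.40%. The finish was called for Pax2 in every WT library, for Tbx10 in WT 3 and WT 4, for Tbx21 and Eomes in WT 3 and for Tbx1 in WT 4. Of the peaks centred within 1 kb of a listed start, 11 of 13, 11 of 16, 16 of 20 and 13 of 19 in WT 1 to 4 were centred after it, and their median midpoints were 404, 249.5, 210.5 and 219 bp into the gene. Midpoints were not counted for all genes, so this placement is not a result about the members.

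**Figure D4:**
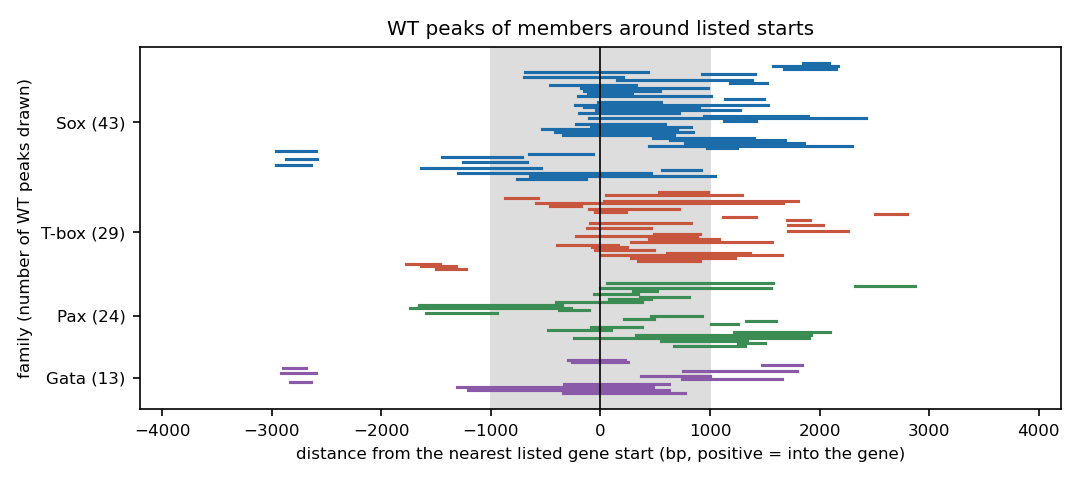
Each line is a WT peak of a member with a listed start, drawn from its midpoint and width against the distance from the nearest listed start in bp (positive into the gene); midpoints beyond 3 kb are left out, the shaded band is 1 kb either side, and colours mark families. Peaks were collected only if they touched the gene or the 1 kb beyond it, so the 2 sides can be compared only within the band, where 11 of 13, 11 of 16, 16 of 20 and 13 of 19 midpoints in WT 1 to 4 lie to the right. Midpoints were not counted for all genes.

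Member peaks were of ordinary strength within their lists. The median percentile by −log10 q was 57.0, 53.6, 50.1 and 51.0 for the 45, 70, 90 and 97 member peaks of WT 1 to 4. Their median fold was 2.96, 2.56, 2.58 and 2.63, below the list medians of 3.16, 2.93, 2.94 and 2.85 in all 4 libraries. Peaks at member ends had median widths of 631, 1037, 699.5 and 631 bp, against 490, 687, 686 and 588 bp for end peaks of all genes. The member peaks were thus lower in fold and, at the ends, wider than the median in each WT library.

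CG content was read in the 300-base promoters whose listed start lies within 1 kb of the outer end, for 26 members and 15751 genes. Over all these genes the median CG count was 3 where no WT library had an end peak, 19 where 1 to 3 had one and 26 where all 4 had one. For the members the medians were 7 (7 genes), 22 (9 genes) and 21 (10 genes). At least 1 CG was present in 94.6% of all promoters and at least 20 in 36.4%, and in 100 and 50% of those of the members. With 20 or more CG, 69.2 ± 15.4% of 13 members and 73.8 ± 13.1% of all genes had an end peak. With 10 to 19 CG the shares were 70.8 ± 16.0% of 6 members and 52.3 ± 14.7% of all genes, and under 10 CG 32.1 ± 13.7% of 7 members and 13.1 ± 3.87% (SD, n = 4). These shares count a peak at either end. In the class under 10 CG, Pax2 in WT 1, 2 and 3 and Tbx10 in WT 3 and WT 4 were called only at the finish. The gap to all genes in that class is therefore not a result about promoters.

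Individual members departed from this pattern in both directions. Sox1 and Sox14 had 37 and 26 CG and no end peak in any library. Pax2 had 7 CG and was called in every WT library, each time at its finish and in WT 4 also near its start. No WT peak overlapped the promoter counted. The finish lies far from that promoter, so the finish calls do not bear on promoter CG. Eomes had 10 CG and was called within 1 kb of its start in all 4 WT libraries. The genes with no peak of any kind also included CG-poor promoters, with 5 in Sox15, 7 in Tbx6 and 1 in Tbx22. The part of base composition in the calls was not tested.

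**Figure D5:**
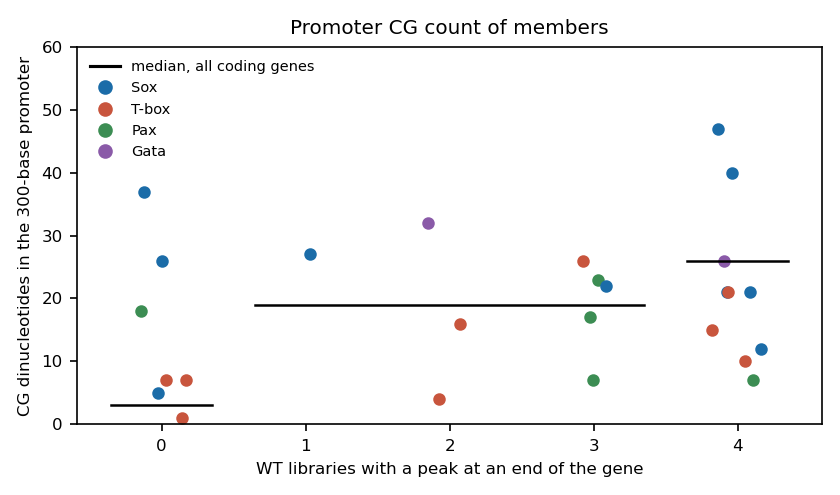
CG dinucleotides in the 300-base promoter (vertical axis) against the number of WT libraries with a peak at an end of the gene, one point per member (26 members, shifted sideways for legibility), coloured by family; black lines are medians of all coding genes in the classes 0, 1 to 3 and 4. Members called in 4 libraries span 7 to 47 CG and those called in none span 1 to 37. Among those called in 4 libraries the point at 7 CG is Pax2, called at its finish in each and in WT 4 also near its start.

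A list of 34 genes that work with these factors was read in the same way. It held Gata cofactors (Zfpm1, Zfpm2, Lmo2, Ldb1, Tal1), Eya and Dach partners of Pax genes, heart factors and the family members T, Mga and Sry. End peaks were found for 19, 22, 24 and 25 of the 34 in WT 1 to 4 and for none in K49A, and 17 were called in every WT library. Of all genes 28.8, 43.0, 46.3 and 49.8% were called in WT 1 to 4, 22.2% in all 4 and 0.430 and 0.334% in K49A, so the absence of K49A calls says nothing about the list. The first 4 by mean percentile were Eya2 (fold 3.57 ± 0.661), a coactivator in Pax networks, Zfpm2 (3.46 ± 0.483), a partner of Gata4, Eya3 (3.40 ± 0.281) and Mga (3.38 ± 0.277; SD, n = 4 each), which carries a T domain. Outside that ranking, and picked after the values were seen, T, the founding T-box gene, was called in every WT library with folds of 2.93, 2.39, 2.47 and 2.99, and Sry, the founding Sox gene, in none. Lmo2, Ldb1 and Runx1 had body peaks in all 4 WT libraries and no end peak, as did Gata3, Gata4 and Tbr1. Of the other Gata cofactors named, Tal1 and Zfpm2 had end peaks in all 4 WT libraries and Zfpm1 in 2. No share over all genes was taken for the pattern of body without end peaks, so it is not a result about these genes.

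The gap between genotypes moved with the lengths of the lists. With every list reduced to its 700 strongest peaks, 1.25 members on average had an end peak in WT and 0 in K49A, and 0 members were called in every WT library. For all genes the shares were then 1.80 ± 0.284% in WT (SD, n = 4) and 0.327% in K49A. At a −log10 q of at least 2, 38.8% of members and 27.6 ± 8.56% of all genes were called in WT, with no member called at an end in K49A.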

How the data were processed

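The data are 6 lists of broad peaks, 4 WT and 2 K49A, with groups and replicate numbers from the sample titles. Per the submitters' processing notes, the authors used MACS2, BWA, SAMtools, Picard and FastQC on build mm10. For versions and settings the sources used here give nothing. Per the labels' protocols the adaptors held molecular identifiers, and whether these served to remove duplicates is not stated there. Each deposited list gives per peak a fold enrichment (ratio), a −log10 p, a −log10 q and a whole-number score, which was not used. Every fold and q is the authors' own value, relative to its own library's background; means over WT libraries describe these values and are not a test. The lists carry no read numbers.

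Peaks were placed on 21883 protein-coding genes of the RefSeq table for GRCm38.p6 with Python 3.11.15, NumPy 2.4.6 and pandas 2.3.3, with a window of 1 kb and an overlap of 1 bp. The table gives no strand, which was taken from the RefSeq promoter table. The best end peak of a gene is that with the highest −log10 q. The listed-start measure, the subgroups, the length classes and the CG counts were set after values were seen. The alternatives were a stricter q or p, lists of equal length, other windows and overlaps, the annotated start alone, and each library left out. The members and lists were chosen with earlier results of these data known, so no p is given for a list. The exact permutation test per gene and the peak placement were tested on simulated data. Genes given with values in each library were the first 4 of a family by mean percentile of the best end peak over WT libraries (0 without a peak) among those called in at least 3, those with a K49A peak and those with 3 or more peaks per WT library. Sox2, Sox12, Sox30, Gata2, Gata3 and Tbr1 were added after their values were seen. The labels call the libraries of a genotype biological replicates, without saying how many mice each came from, so spread between them may be technical.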

Additional observations from a re-analysis of the deposited data

Results flagged for a closer look

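WT 1 stood apart from the other 3 WT libraries in the number of members with a body peak. It had 17 of 49, where the others had 31, 32 and 32, and among Sox genes it had 5 of 19, where the others had 11, 12 and 12. In both cases its gap to the nearest library, divided by the range of the 4, was above Dixon's 95% limit for 4 samples, which chance passes in about 1 of 20 groups. WT 1 also had the shortest WT list, with 11313 peaks against 20458 to 27903, and called 14.7% of all genes in the body against 25.7 to 30.5%. The part of list length in the gap was not tested.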

How the results depend on the processing

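The numbers rested on the threshold and on the window more than on single libraries. At a −log10 q of at least 2 the difference in members with an end peak between WT and K49A was 19 (26 as reported), 7 members were called in every WT library (7 of them in neither K49A library), with 7 not overlapping in covered length. The shares were 48.7% of Sox, 41.7% of T-box and 25.0% of Pax genes. At a −log10 p of at least 5 these were 17.2, 6, 6 and 6, and 43.4, 38.3 and 22.2%, with a difference in body peaks of 17.8 (27.5 as reported). The share of all genes with an end peak in WT fell too. It was 27.6 ± 8.56% at this q and 24.4 ± 5.85% at this p, where 38.8 and 35.1% of members had one. With 700 peaks per list the differences were 1.25 at ends and 0.500 in bodies, the 3 counts were 0, and the shares were 5.26, 1.67, 0 and 0% for Sox, T-box, Pax and Gata genes. A window of 500 bp left 10 members called in every WT library, 10 of them in neither K49A library and 10 not overlapping, and 25% of Pax genes. At 500 bp 42.4% of members and 38.0 ± 8.79% of all genes had an end peak in WT, against 54.1 and 42.0% at 1 kb. A window of 2 kb gave 61.1% of Pax and 50% of Gata genes, with 67.8% of members and 45.9 ± 9.90% of all genes. Only the annotated start, for 35 members, gave a difference of 16.8, with 10 members called in every WT library, 10 not overlapping, 40.9% of T-box and 37.5% of Gata genes. Any listed start, chosen after the data were seen, gave 60.7% of Pax and 56.2% of Gata genes. The shares of the last 2 settings are over fewer genes. Counts of members called in every WT library or not overlapping were not set beside all genes here. Their changes are therefore not results about the members.

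Without 1 library at a time, the difference was 24.2 to 28.8 at ends and 26.2 to 31.2 in bodies. The members called in every WT library were 16 to 22, those in no K49A library besides 15 to 21, and those not overlapping 16 to 22, the highest without WT 1. Such counts can only stay or rise when a library is left out, so their lower ends were fixed in advance. The shares were 59.6 to 71.9% of Sox, 53.3 to 64.4% of T-box, 37.0 to 48.1% of Pax and 22.2 to 27.8% of Gata genes. Of 124 alternative values 88 stayed within the spread between libraries, or within 1.5 times for counts. Counts and shares cannot change sign, but the order of Sox and Pax shares did, with 59.6 and 60.7% for any listed start. The sample titles give WT and K49A libraries the same numbers. With these numbers as a replicate block (pairing WT 1 with K49A 1 and WT 2 with K49A 2) the mean difference was 20.5 members at ends and 23.5 in bodies. Deviations of same-numbered libraries had correlations of -0.00701 and -0.00536 over 13096 genes. With 0.430 and 0.334% of all genes called at an end in K49A, such values lie near 0 with or without pairing. They therefore cannot decide whether the numbers pair the libraries. The labels do not say which libraries were prepared together. The libraries were treated as unpaired for that reason, and the blocked values are uncertain. Depth is unknown, so a missing peak is not a missing nucleosome.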
